A study of Homo sapiens with 28 samples.

Results

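The genes of 9 WNT ligands, WNT1, WNT3, WNT3A, WNT4, WNT5A, WNT7A, WNT7B, WNT8B and WNT10B, and WLS, the gene of the protein that carries WNT ligands to the cell surface, were followed through neural differentiation of H9, a widely used line of human embryonic stem cells. The 10 genes were taken by gene name from a table of 58219 genes, and each of the 10 passed the filter that left 27912 genes for testing. The study asked what SOX1, a transcription factor of early neural tissue, does in this process. Cells were SOX1-/- (KO, numbered 26 and 48) or wild type (WT, numbered 1 and 2), and these numbers were read as lines. They were collected as undifferentiated ES cells (ES) and as neural progenitor cells on days 4 and 8 under each of 3 culture labels, CT1.0, CT0.4 and IWP2. The compound IWP2 stops cells from secreting WNT ligands, while the letters CT are left unexplained, and their number without a unit, in the sources used here. Every differentiating group carries 1 of these labels, so no group shows the cells without them. Each of the 14 groups holds 2 libraries, 1 per line, which makes 28 in all. The sources used here do not say whether a line is 1 clone.

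WNT ligands are secreted glycoproteins that act on neighbouring cells. The enzyme PORCN attaches a lipid to them, WLS then ferries the lipid-bearing ligand to the cell surface, and IWP2 blocks PORCN. At the receiving cell they bind Frizzled (FZD) receptors with LRP5 or LRP6 and stabilise β-catenin, which switches on feedback genes such as AXIN2, or bind FZD with ROR or RYK receptors and act without β-catenin. In the early neural tube WNT signals come mainly from the dorsal midline, the roof plate and the midbrain-hindbrain boundary, and they favour posterior over forebrain fates.

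The promoters of WNT1, WNT8B and WLS are shown because these 3 genes carry the main results: WNT1 reached the highest level of the ligands, WNT8B differed between KO and WT in opposite directions under the 2 CT labels, and WLS reached the highest level of the 10. Each line gives the 250 bases before the RefSeq start on GRCh38.p14, read in the direction of the gene, with every CpG in capitals. WNT1 is at chr12:48978072-48978321 on the plus strand, WNT8B at chr10:100462759-100463008 on the plus strand, and WLS, the first of 2 RefSeq entries, at chr1:68232524-68232773 on the minus strand.
WNT1: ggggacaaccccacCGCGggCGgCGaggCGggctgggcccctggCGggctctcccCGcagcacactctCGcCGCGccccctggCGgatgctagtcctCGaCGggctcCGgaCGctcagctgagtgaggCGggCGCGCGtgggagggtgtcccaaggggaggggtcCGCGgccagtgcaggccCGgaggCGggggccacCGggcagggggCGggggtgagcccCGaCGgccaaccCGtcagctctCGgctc
WNT8B: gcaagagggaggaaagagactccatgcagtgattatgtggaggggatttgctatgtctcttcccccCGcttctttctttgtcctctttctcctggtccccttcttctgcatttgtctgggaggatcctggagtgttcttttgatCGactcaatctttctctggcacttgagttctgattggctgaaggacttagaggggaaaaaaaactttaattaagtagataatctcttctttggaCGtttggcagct
WLS: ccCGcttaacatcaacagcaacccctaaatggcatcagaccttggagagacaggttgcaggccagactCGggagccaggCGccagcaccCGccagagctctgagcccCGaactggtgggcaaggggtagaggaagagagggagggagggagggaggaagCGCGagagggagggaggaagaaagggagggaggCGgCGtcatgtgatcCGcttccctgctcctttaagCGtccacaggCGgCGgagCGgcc
The WNT1 window holds 29 CpG at 78.4% GC and the WLS window 14 at 64.0%, while the WNT8B window holds 3 at 45.2%. The median over 35116 windows of this length is 11 CpG and 58.0% GC. The letters CTTTGAT, a core of the TCF/LEF motif, were searched on both strands, and 2.26% of all windows hold them. They are absent from the windows of all 8 members with a promoter sequence in the sources used here. The letters ACAAT, a core of the SOX motif, occur in 24.6% of all windows and, among the members, once, in the first WNT5A entry, 83 bases before the start. No member window held both, so the matches do not overlap. A match is a description only, and the absence of one says nothing of the factor. WNT7B and WNT10B have no promoter sequence in the sources used here.

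Values are TPM per gene as deposited, a measure corrected for transcript length that gives every library an equal total, so levels of different genes are comparable per length. Pairs of values are lines 26 and 48 for KO and lines 1 and 2 for WT, and means carry the SD of n = 2 libraries. With 2 libraries against 2, a lack of overlap is a description only, and the share of all genes without overlap is not given. Tests were made with limma on log2(TPM + 1), which understates the change of low genes, and "called" means a Benjamini-Hochberg adjusted p under 0.05 over the 27912 genes. With 1 library per line, a p-value rests on the spread between the 2 libraries of a group, pooled over the 14 groups. It does not measure the spread of the groups compared alone. Part of that spread may be technical, and libraries of the same line were treated as independent. SOX1 itself stood at 1.14 and 2.77 TPM in KO CT1.0 on day 8, against 72.1 and 79.4 TPM in WT CT1.0. It was at or under 3.08 TPM in every KO library, and gene-level TPM cannot show what remains of the transcript. The summed level of 6 pluripotency genes was 484 to 1110.0 TPM in the 24 libraries of days 4 and 8, against 4088 to 4299 TPM in the 4 ES libraries, and 7 neural progenitor genes summed to 1179 to 3217 TPM on days 4 and 8, against 390.5 to 557 TPM in ES. The 4 WT day 4 libraries of CT1.0 and CT0.4 stood apart, with 17694 to 18233 genes at a TPM of 1 or more, against 18876 to 20338 in the other 24. Median-ratio scaling moved the median of all genes by over 0.1 on the log2 scale in 10 of 37 comparisons, where the median as deposited ran from -0.22 to 0.21. In 25 of the 37 it moved the share of higher among the called genes by over 10 percentage points, so shares of all genes called as higher or lower depend on the scaling.

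The cultures differed first in how much WNT transcript they held and in which ligand made it up. Summed over 19 WNT genes (the 9 ligands and 10 others), CT0.4 on day 8 held 1189.9 and 1069 TPM in KO and 1094 and 875 TPM in WT. CT1.0 on day 8 held 223 and 127 TPM in KO, against 39.1 and 33.3 TPM in WT. IWP2 on day 8 held 138 and 168 TPM in KO and 148 and 156 TPM in WT, and the 4 ES libraries 6.97 to 16.02 TPM. The CT0.4 totals on day 8 were therefore the highest of all libraries in both genotypes, the KO and WT totals of CT1.0 did not overlap, and those of IWP2 did.

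WNT1 made up 53.1% and 47.8% of the total in KO CT0.4 and 50.03% and 47.99% in WT CT0.4 on day 8. In CT1.0 on day 8 its share was 59.1% and 45.3% in KO, against 19.1% and 14.99% in WT. In IWP2 on day 8 a ligand outside the 10 members led: WNT5B, known for acting without β-catenin, held 70.9% and 67.2% in KO and 69.2% and 71.9% in WT. The share of WNT1 there was at most 0.288%. In bulk RNA, fewer cells of a type and less RNA per cell cannot be told apart, and this holds for every level below.

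**Figure D1:**
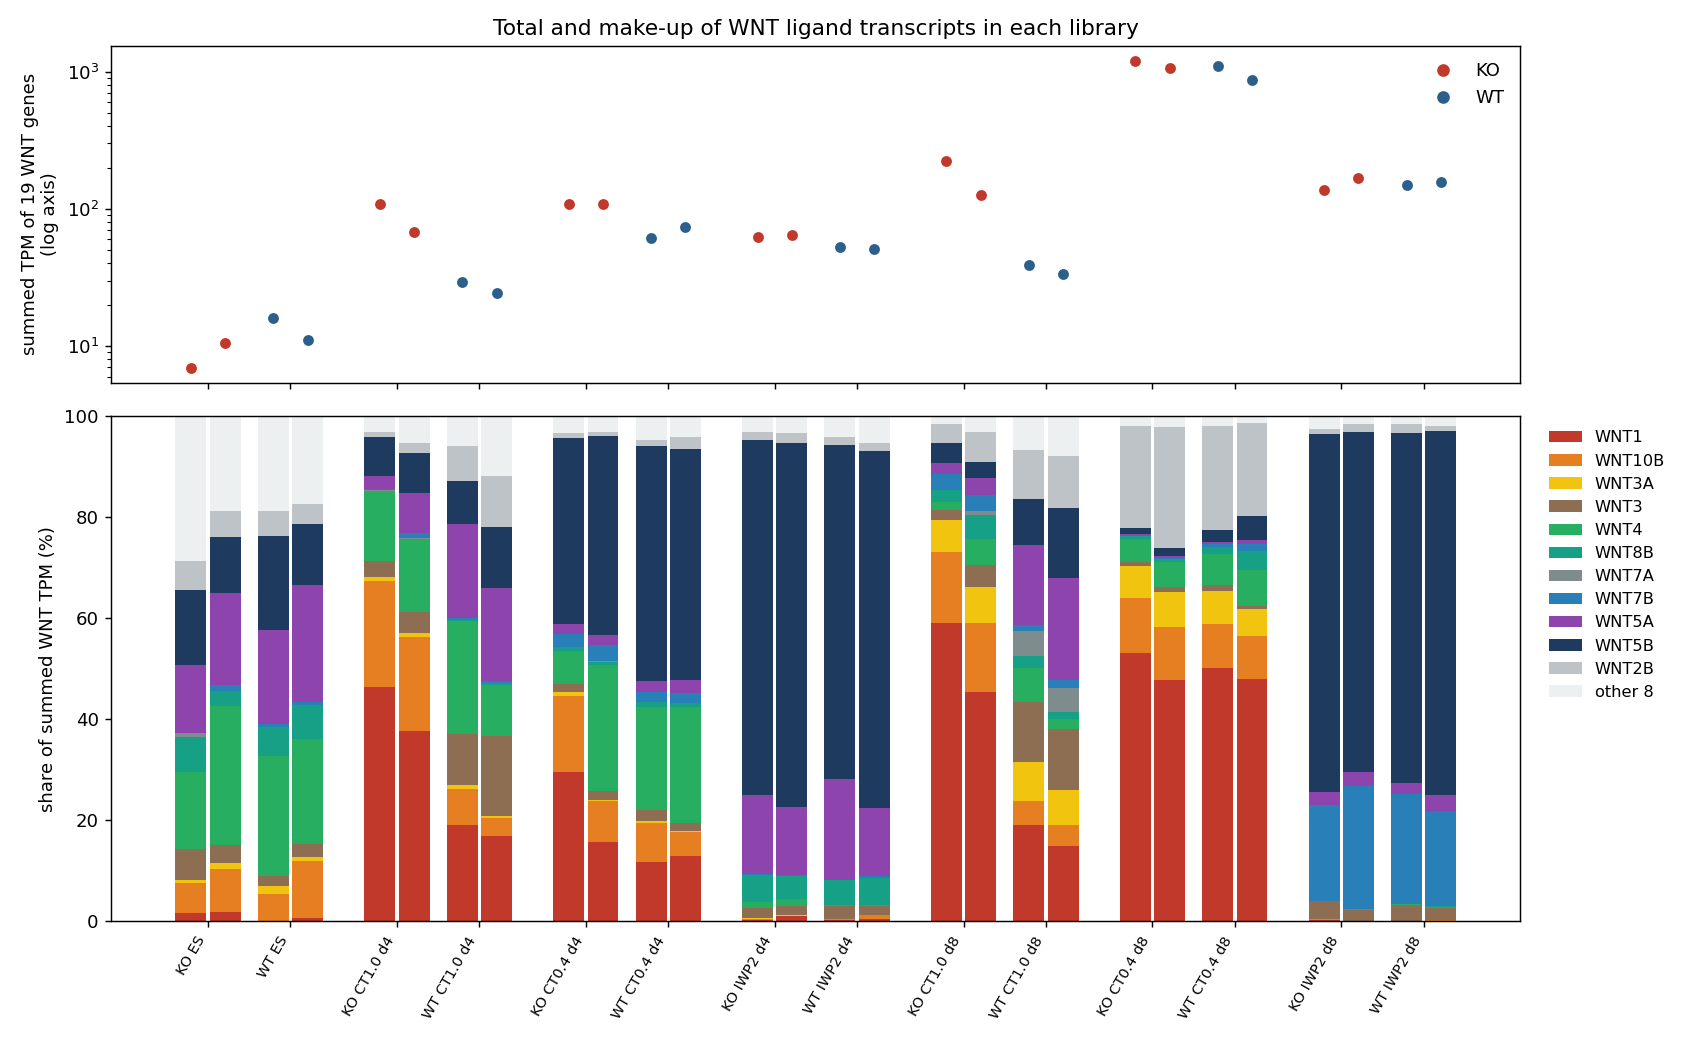
Summed TPM of 19 WNT genes per library (upper panel, log axis) and the share of each gene in that sum in percent (lower panel), with 2 libraries for each group. CT0.4 on day 8 reached 875 to 1189.9 TPM with WNT1 at 47.8% to 53.1% of the sum, and WNT5B filled most of the bars of IWP2.

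WNT1, the classical midline signal of the midbrain and of the midbrain-hindbrain boundary, spanned the widest range among the ligands. On day 8 in CT0.4 it stood at 632 and 511 TPM in KO and 548 and 420.1 TPM in WT. In CT1.0 it stood at 132 and 57.6 TPM in KO and 7.48 and 4.98 TPM in WT, and in IWP2 at 0.396 and 0.0699 TPM in KO and 0.0691 and 0.140 TPM in WT. Both genotypes were thus high in CT0.4 with overlapping values, only the KO lines held 57.6 TPM or more in CT1.0, and IWP2 was near 0. On day 4 the levels were 50.5 and 25.6 TPM in KO CT1.0, 5.59 and 4.10 TPM in WT CT1.0, 32.0 and 17.1 TPM in KO CT0.4 and 7.30 and 9.55 TPM in WT CT0.4. Across the 14 groups the order ran from KO CT0.4 on day 8 to WT ES (mean 0.0317 TPM), and 8 of the 13 neighbouring pairs in that order overlapped.

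WNT10B, a β-catenin ligand known from bone and fat formation, lay well below WNT1 in these groups. In CT0.4 on day 8 it stood at 129.7 and 112 TPM in KO and 95.1 and 74.6 TPM in WT. In CT1.0 on day 8 it stood at 31.2 and 17.5 TPM in KO and 1.79 and 1.38 TPM in WT, and on day 4 at 22.9 and 12.6 TPM in KO and 2.13 and 0.851 TPM in WT. The KO and WT lines did not overlap in any of these 3 pairs, but WNT10B was not called between KO and WT in CT0.4 on day 8. Over the 14 group means of log2(TPM + 1) its Pearson correlation with WNT1 was 0.983, a description over groups that share lines.

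WNT3A, a β-catenin ligand of the dorsal midline in the mouse neural tube, appeared late. It was at 0.847 TPM or less in all 16 libraries of ES and day 4, and in IWP2 on day 8 it was listed at 0.0268 and 0.0276 TPM in KO and at 0 in both WT libraries. CT0.4 on day 8 held 74.8 and 72.3 TPM in KO and 73.3 and 46.1 TPM in WT, and CT1.0 held 14.03 and 8.88 TPM in KO and 3.03 and 2.27 TPM in WT. KO and WT overlapped in CT0.4 and did not in CT1.0. WNT3, a close relative needed for gastrulation in the mouse, had a narrow range from 0.295 TPM in WT ES to 11.4 ± 1.47 TPM in KO CT0.4 on day 8. Its KO and WT values overlapped in 5 of the 7 settings, and it was called between KO and WT in none.

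WNT8B, a ligand of the dorsal forebrain in the mouse embryo, and WNT7B and WNT7A, known for guiding blood vessels into the brain, had other patterns between the genotypes. WNT8B on day 8 stood at 5.17 and 6.31 TPM in KO CT0.4 and 16.002 and 31.5 TPM in WT CT0.4, but at 5.37 and 6.06 TPM in KO CT1.0 and 0.935 and 0.464 TPM in WT CT1.0. KO was below WT in CT0.4 and above it in CT1.0, with no overlap in either, and the KO means were 5.74 TPM in CT0.4 and 5.72 TPM in CT1.0. WNT8B was also present in IWP2 on day 4, at 3.29 and 2.95 TPM in KO and 2.58 and 2.69 TPM in WT, and near 0 there on day 8.

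WNT7B had its highest level in IWP2 on day 8, at 26.1 and 40.7 TPM in KO and 32.1 and 29.4 TPM in WT. In CT0.4 on day 8 it stood at 1.71 and 1.16 TPM in KO and 5.15 and 11.9 TPM in WT, and in CT1.0 at 7.14 and 4.16 TPM in KO and 0.471 and 0.568 TPM in WT. The pattern between genotypes had the same 2 directions as that of WNT8B, and IWP2 overlapped. WNT7A passed the filter only through WT CT1.0 on day 8, at 1.97 and 1.55 TPM, where KO CT1.0 held 0.215 and 0.788 TPM. It was at or under 0.190 TPM in every other library, so its values are close to the limit of the table. WT CT1.0 on day 8 admitted it to testing and so had to be high. Its calls against that group enter the counts below, are marked there, and are no independent result.

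WNT4, best known from kidney and ovary development, had its highest levels in CT0.4 on day 8, where both KO lines lay below both WT lines without a call. In CT0.4 on day 8 it stood at 54.2 and 52.5 TPM in KO and 67.4 and 62.8 TPM in WT, and in CT0.4 on day 4 at 7.15 and 27.3 TPM in KO and 12.6 and 17.1 TPM in WT. IWP2 held under 1 TPM in each library on both days, and the ES libraries 1.05 to 3.81 TPM. WNT5A, the classical ligand that acts without β-catenin, was present in every group within a narrow range, from 1.42 ± 0.700 TPM in KO ES to 9.24 ± 0.816 TPM in KO IWP2 on day 4. Of its 13 neighbouring pairs of groups, 10 overlapped, and among the 9 ligands WNT5A alone had its highest mean in IWP2 on day 4.

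WLS, the carrier, was the one member at 1 TPM or more in both libraries of all 14 groups. It stood at 3.12 and 5.24 TPM in KO ES and 3.31 and 4.07 TPM in WT ES. On day 4 it held 173 and 166 TPM in KO and 179 and 163 TPM in WT in CT1.0, 255 and 291 TPM in KO and 240.25 and 229 TPM in WT in CT0.4, and 16.5 and 20.9 TPM in KO and 21.8 and 12.5 TPM in WT in IWP2. Both CT labels held 163 TPM or more in every library, IWP2 lay far below them, and KO and WT overlapped in CT1.0 and IWP2. On day 8 the labels parted: CT0.4 held 1659.6 and 1726 TPM in KO and 1535 and 1149 TPM in WT, CT1.0 held 248 and 184 TPM in KO and 135 and 115 TPM in WT, and IWP2 held 3.25 and 3.32 TPM in KO and 6.31 and 2.26 TPM in WT.

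**Figure D2:**
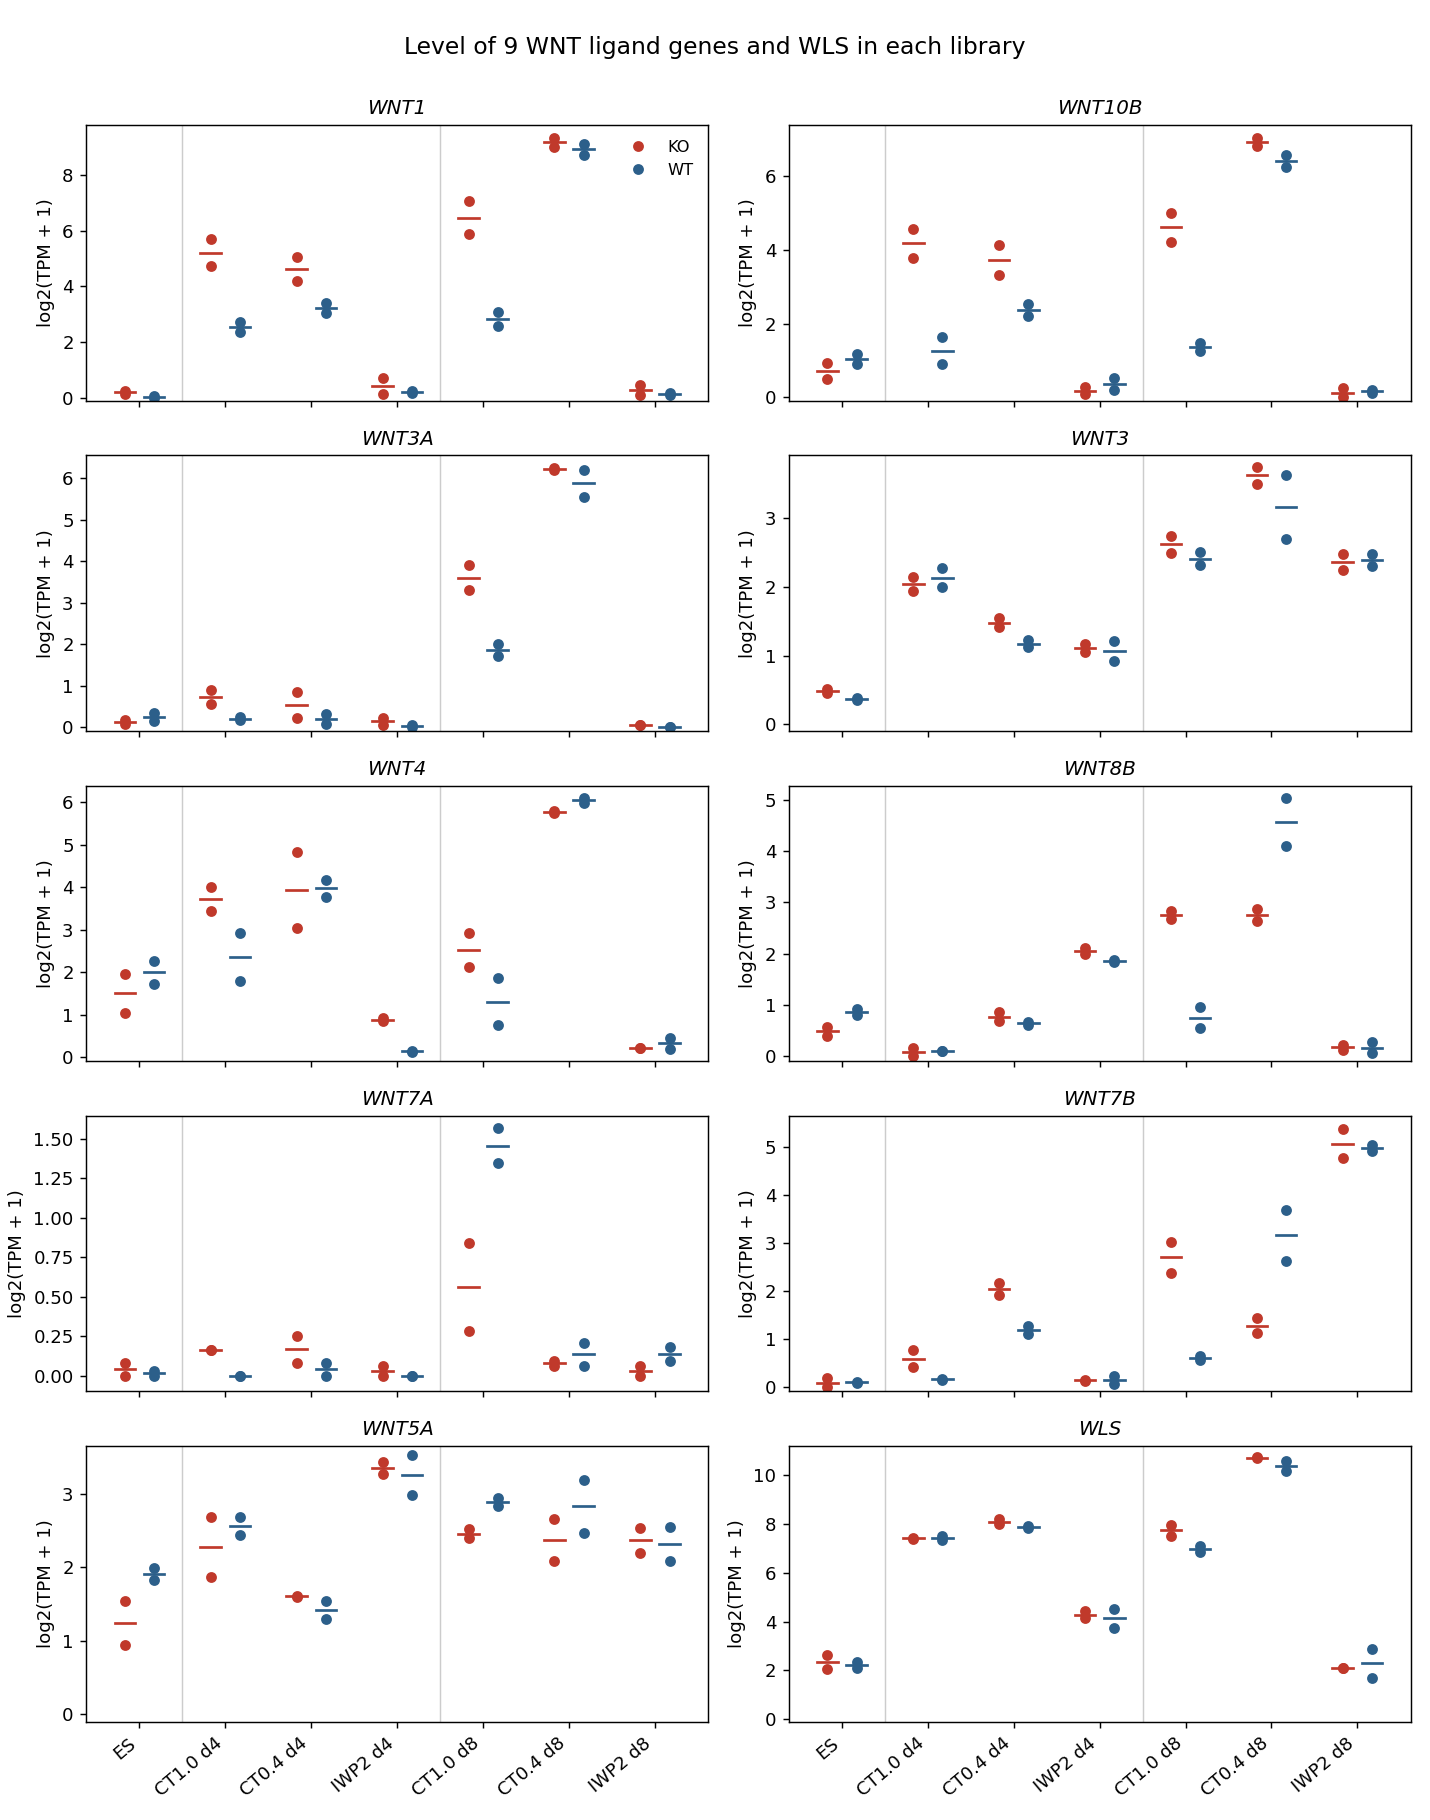
Level of each of the 10 genes as log2(TPM + 1) in the 28 libraries, as points, with a bar at the mean of each group of 2 libraries, KO in red left of WT in blue. WNT1, WNT10B and WNT3A are highest in CT0.4 on day 8 in both genotypes and, in CT1.0 on day 8, higher in both KO lines than in both WT lines, while WNT7B is highest in IWP2 on day 8.

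The comparison of culture labels within a genotype shows which ligands go with which culture. In CT0.4 against IWP2 on day 8, 8 of the 10 members were called in KO, against 16.5% of all genes tested, and 8 in WT, against 12.2%. Of these, 7 were higher and 1, WNT7B, was lower in each genotype. In KO the log2 fold changes were 8.86 (SE 0.370) for WNT1, 8.63 (SE 0.299) for WLS, 6.80 (SE 0.336) for WNT10B, 6.18 (SE 0.258) for WNT3A and 5.56 (SE 0.503) for WNT4. WNT8B was higher by 2.58 in KO and by 4.39 in WT, and WNT3 by 1.26 in KO and 0.78 in WT, where the call (adjusted p = 0.0429 by limma) was kept in 4 of 9 alternatives. WNT7B was lower, with log2 fold changes of -3.80 in KO and -1.83 in WT, and WNT5A and WNT7A were not called in either genotype.

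In CT1.0 against IWP2 on day 8, 8 members were called in KO (20.5% of all genes), 7 of them higher, and 6 in WT (10.8% of all genes), 5 of them higher. These counts hold WNT7A, whose WT difference follows from the filter. Both CT comparisons use the same IWP2 libraries. WLS was higher by 5.65 in KO and 4.69 in WT on the log2 scale, and WNT1 by 6.17 in KO and 2.69 in WT. WNT8B (log2 2.58) and WNT4 (log2 2.32) were called in KO, and in WT they had log2 differences of 0.58 and 0.99 without a call. WNT7A had a log2 difference of 0.53 in KO, between values under 1 TPM, and its call was kept in 5 of 9 alternatives. Again WNT7B was lower, at -2.38 in KO and -4.38 in WT.

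CT1.0 against CT0.4 on day 8 set the 2 CT labels against each other. In KO 7 members were called (23.1% of all genes), 6 lower and 1 higher, and in WT 9 were called (14.3% of all genes), 8 lower, the other being WNT7A, which the filter admitted through this group. WNT1 was lower, with log2 fold changes of -2.69 in KO and -6.08 in WT, and so was WNT10B, with -2.32 in KO and -5.05 in WT. WLS had -2.98 in KO and -3.40 in WT. WNT7B was higher in KO (log2 1.42) and lower in WT (log2 -2.55).

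On day 4 WNT1, WNT4 and WLS were higher under both CT labels than in IWP2 in each genotype. CT0.4 against IWP2 called 7 members in KO (4.8% of all genes) and 7 in WT (13.1%), 5 of them higher and 2 lower in each. CT1.0 against IWP2 called 7 in KO (13.8%), 5 of them higher, and 5 in WT (20% of all genes), 4 of them higher. WLS was higher in all 4 comparisons, by 3.80 and 3.12 in KO and 3.75 and 3.30 in WT on the log2 scale, for CT0.4 and CT1.0. WNT8B was lower in all 4, between -1.22 and -1.97, and WNT5A was lower in 3 of them, between -1.08 and -1.83. CT1.0 against CT0.4 on day 4 called 1 member in KO, WNT7B at -1.46 (1.78% of all genes called), and 3 in WT, WNT5A at 1.15, WNT3 at 0.96 and WNT7B at -1.04 (6.47%). The calls of WNT5A, WNT3 and WNT7B between the 2 CT labels on day 4 each ended when either line was left out. With the line number as a block, WNT7B in WT was not called (adjusted p = 0.0558 by limma), while WNT10B (log2 -1.09, adjusted p = 0.0397) and WNT4 (log2 -1.62, adjusted p = 0.0470) were. In WT CT1.0 against IWP2 the block added WNT10B (log2 0.90, adjusted p = 0.0450).

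**Figure D3:**
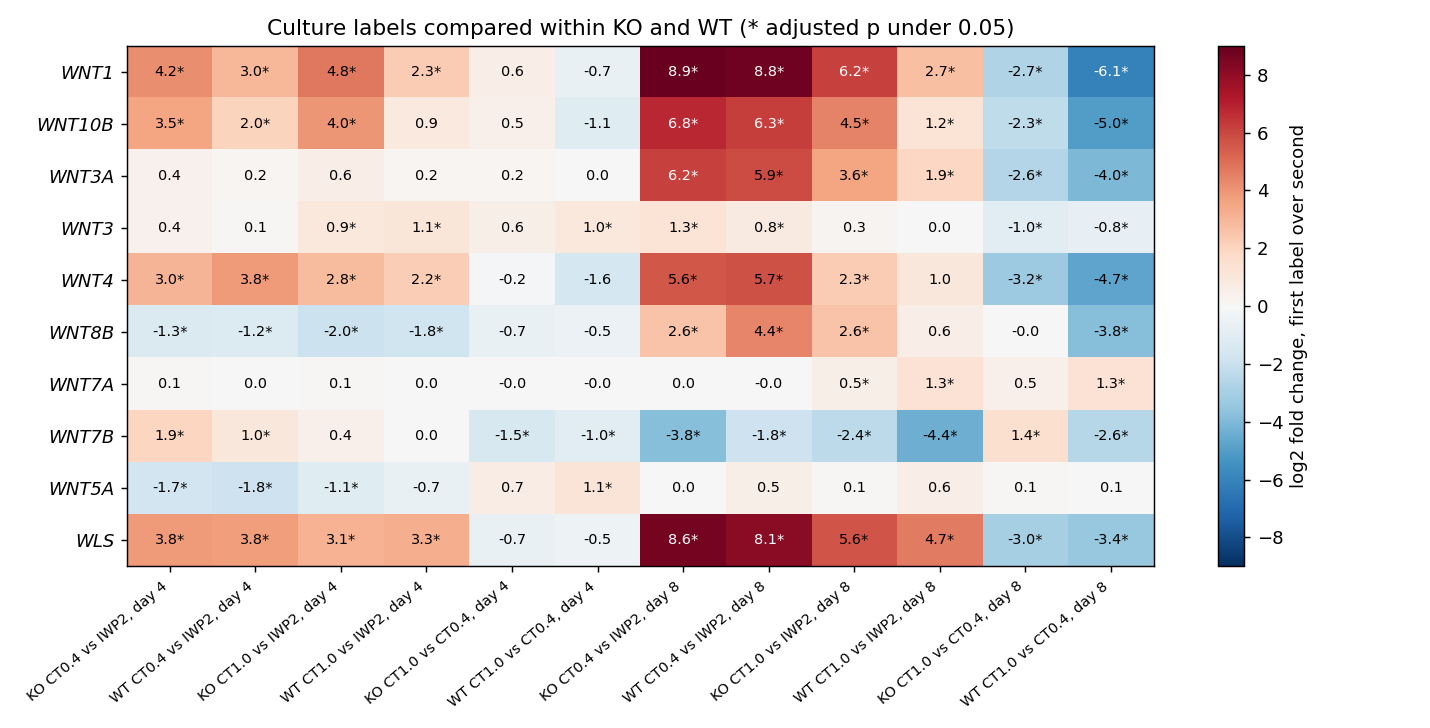
Log2 fold changes of the 10 genes between culture labels within KO and WT on days 4 and 8, first label over second, with an asterisk where limma's adjusted p was under 0.05. WNT1 and WLS show the deepest red in CT0.4 against IWP2 on day 8 (8.86 and 8.63 in KO), and WNT7B is blue there (-3.80 in KO); the asterisks of WNT7A in WT CT1.0 on day 8 follow from the filter.

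Over time, the ligands of CT0.4 appeared in steps. On day 4 against ES, CT0.4 had 6 members called in KO (36.3% of all genes) and 6 in WT (29.9%). On day 8 against day 4 it had 7 called in KO (21.5%) and 9 in WT (24.8%), and every one of these calls was higher on the later day. WNT1 was higher on day 4 than in ES by 4.40 in KO and 3.18 in WT on the log2 scale, and on day 8 than on day 4 by a further 4.54 and 5.68. WNT3A was called only in the second step of CT0.4, at 5.69 in KO and 5.70 in WT, and the first step was not called for it in either genotype. WLS had its larger step first, 5.75 in KO and 5.66 in WT, and then 2.63 and 2.50.

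On day 4 against ES, CT1.0 had 6 members called in KO (38.4% of all genes), all higher. In WT it had 4 called (31% of all genes), WNT8B lower and 3 higher. Of all genes, 5575 were higher and 5132 lower in KO as deposited, and 5026 higher and 5880 lower under median-ratio scaling. The WT counts were 2855 higher and 5811 lower as deposited, and 3862 higher and 5082 lower scaled. On day 8 against day 4 it had 4 higher in KO (11% of all genes called), among them WNT3A at log2 2.88 and WNT1 at 1.26, where the call of WNT1 was kept in 4 of 9 alternatives. In WT 2 were called (14.7%), WNT3A at 1.66 and WNT7A, which the day 8 group admitted to testing. Of all genes in this step, 1162 were higher and 1917 lower in KO as deposited, and 1597 higher and 1412 lower scaled. The WT counts of this step were 3414 higher and 685 lower as deposited, and 1420 higher and 1655 lower scaled. In IWP2, day 4 against ES gave 3 members higher in KO, WNT5A, WLS and WNT8B (34.7% of all genes called), and 4 higher and 1 lower in WT, the lower one being WNT4 (35.2%). Day 8 against day 4 in IWP2 called 4 members in each genotype, WNT7B and WNT3 as higher and WLS and WNT8B as lower (9.72% of all genes called in KO and 13.8% in WT). With the line number as a block WNT5A was lower as well, at -0.98 in KO (adjusted p = 0.0447 by limma) and -0.94 in WT (adjusted p = 0.0445). WNT7B was higher there by 4.94 in KO and 4.84 in WT on the log2 scale, and WLS had -2.19 and -1.84.

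The main comparison asks what loss of SOX1 changed. In CT1.0 on day 8, 5 ligands were higher in KO than in WT, 4 members were not called, and WNT7A was lower in the group pair through which it entered testing. Of all genes tested, 14.3% were called, 4.34% as higher and 9.96% as lower, which is 1210 higher and 2779 lower as deposited and 1663 higher and 1855 lower under median-ratio scaling. WNT1 was higher at 94.8 ± 52.6 TPM in KO against 6.23 ± 1.77 TPM in WT (log2 fold change 3.63, SE 0.370, adjusted p = 2.45e-05 by limma). WNT10B was higher at 24.4 ± 9.63 TPM in KO against 1.59 ± 0.293 TPM in WT (log2 3.24, SE 0.336, adjusted p = 2.71e-05). WNT3A was higher at 11.5 ± 3.65 TPM in KO against 2.65 ± 0.540 TPM in WT (log2 1.75, SE 0.258, adjusted p = 0.000403).

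Also higher in KO CT1.0 on day 8 were WNT7B (log2 2.09, SE 0.301, adjusted p = 0.000340) and WNT8B (log2 1.99, SE 0.244, adjusted p = 9.88e-05), ligands that stood under 1 TPM in both WT lines. WNT7A averaged 0.502 TPM in KO and 1.76 TPM in WT, which is no independent result, since the WT group admitted it to testing. WLS had a log2 difference of 0.77 with a 95% interval from 0.14 to 1.40 and WNT4 one of 1.22 from 0.15 to 2.28, and neither was called. WNT3 (log2 0.21) and WNT5A (log2 -0.43) were not called either. In this comparison none of the 5 higher calls was made when only the 4 libraries compared entered the fit, since 2 residual degrees of freedom then remain, and all 5 were made in all 4 fits that left out 1 line.

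On day 4 in CT1.0 WNT1 and WNT10B were higher in KO and no member was lower (14.9% of all genes called, 12.4% as higher, with a median of 0.19 over all genes). As deposited 3453 genes were higher and 694 lower, and under median-ratio scaling 1821 were higher and 2443 lower, where both members kept their calls. WNT1 stood at 38.0 ± 17.6 TPM in KO against 4.85 ± 1.05 TPM in WT (log2 fold change 2.67, SE 0.370, adjusted p = 0.000190 by limma), and WNT10B at 17.8 ± 7.25 TPM in KO against 1.49 ± 0.902 TPM in WT (log2 2.91, SE 0.336, adjusted p = 4.35e-05). In CT0.4 on day 4 these 2 genes were called as well (4.24% of all genes, 3.67% as higher, with a median of 0.13 and 1025 higher and 158 lower as deposited, 474 higher and 955 lower scaled), at log2 1.38 for WNT1 (SE 0.370, adjusted p = 0.0438) and 1.36 for WNT10B (SE 0.336, adjusted p = 0.0321). Those CT0.4 calls ended with a pseudocount of 0.1, under median-ratio scaling, with log2 values of 1.21 and 1.197, and without WT line 1, WT line 2 or KO line 26. The WT libraries of both day 4 comparisons are the 4 with fewer genes at a TPM of 1, and the part of this in the result was not tested.

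In CT0.4 on day 8 the high ligands did not differ by a call between KO and WT. SOX1 stood there at 11.3 and 15.7 TPM in WT and 0.813 and 2.09 TPM in KO, so WT CT0.4 held far less of it than WT CT1.0. In CT0.4 on day 4 it stood at 4.88 and 7.01 TPM in WT. The part of the SOX1 level in the CT0.4 comparisons, and in those of CT0.4 with CT1.0, was not tested. WNT1 had a log2 difference of 0.24 with a 95% interval from -0.54 to 1.03, WNT3A one of 0.33 from -0.21 to 0.88, and WLS one of 0.35 from -0.28 to 0.98. The 2 members called were lower in KO (0.416% of all genes called, 0.258% as lower). These were WNT8B at 5.74 ± 0.807 TPM in KO against 23.8 ± 10.97 TPM in WT (log2 -1.81, SE 0.244, adjusted p = 0.00151 by limma), and WNT7B at 1.43 ± 0.389 TPM in KO against 8.54 ± 4.81 TPM in WT (log2 -1.88, SE 0.301, adjusted p = 0.00650). Both calls ended with a pseudocount of 0.1 and without WT line 2, KO line 26 or KO line 48. Without WT line 2, the line with the higher values, the differences were -1.34 for WNT8B and -1.35 for WNT7B. In the same libraries the floor plate and ventral list summed to 1.41 and 1.49 TPM in KO and to 6.34 and 19.8 TPM in WT, with FOXA2 at 0 in both KO libraries and NKX2-2 at 0 in all 4. The part of these markers in the result was not tested.

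In ES and in IWP2, limma called 0 of the 10 members between KO and WT. SOX1 was low in WT too in ES (0.264 and 0.177 TPM). In IWP2 on day 4 it stood at 0.907 and 0.990 TPM in WT and 0.410 and 1.14 TPM in KO. In IWP2 on day 8 it stood at 10.6 and 9.90 TPM in WT and 1.96 and 2.77 TPM in KO. The part of the SOX1 level in these comparisons was not tested. The shares of all genes called were 0.219% in ES, 0.0430% in IWP2 on day 4 and 0.0609% in IWP2 on day 8. At an unadjusted p under 0.05 the counts of members were 1 in ES, WNT5A at log2 -0.67, and 0 in IWP2 on either day. For WNT7B, abundant in IWP2 on day 8, the log2 difference there was 0.09 with a 95% interval from -0.55 to 0.72.

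**Figure D4:**
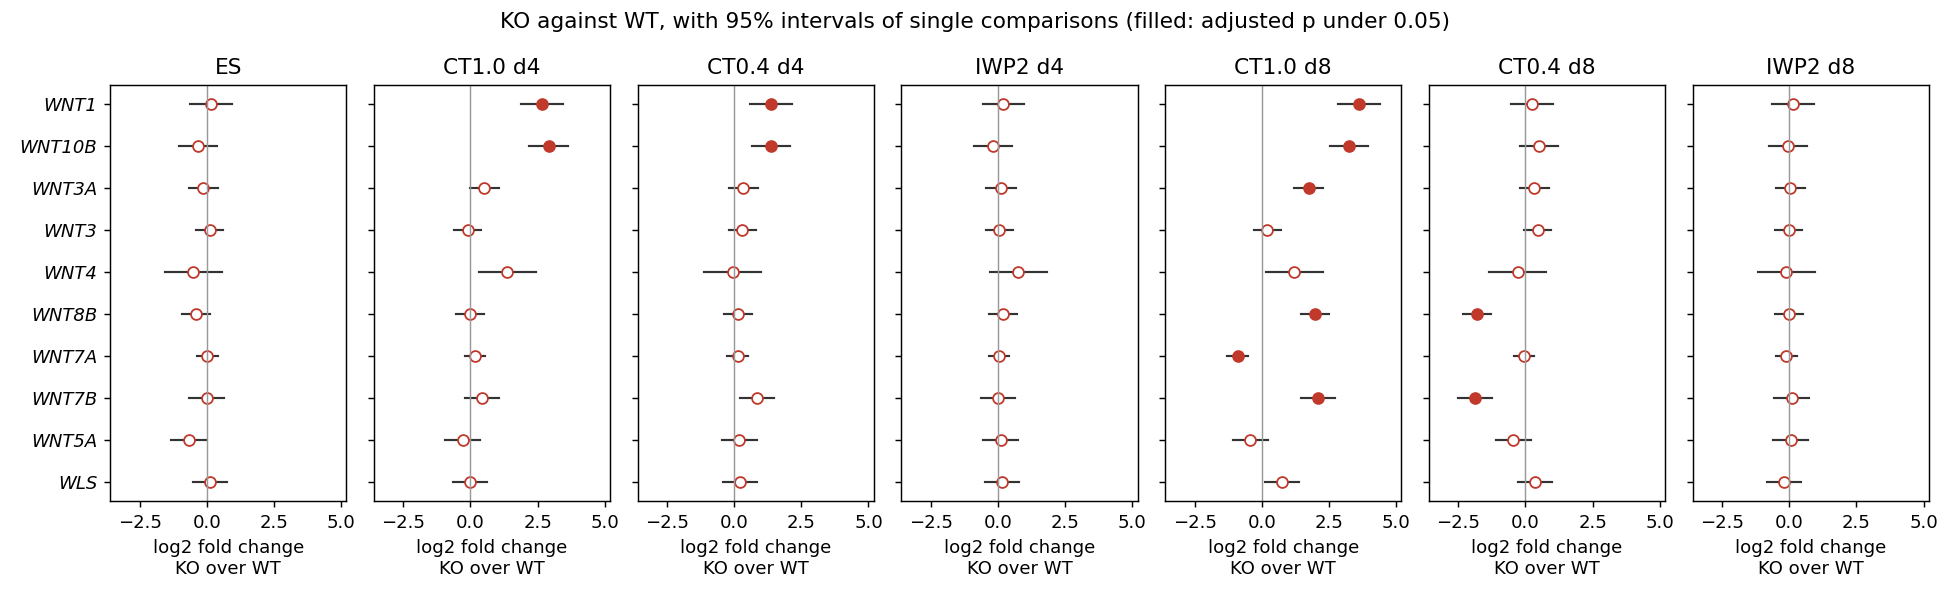
Log2 fold change of KO over WT for the 10 genes in each of the 7 settings, with the 95% interval of each single comparison, filled where limma's adjusted p was under 0.05. Filled points lie to the right of 0 for WNT1 and WNT10B in CT1.0 on both days (2.67 to 3.63) and in CT0.4 on day 4. WNT3A, WNT7B and WNT8B are filled to the right in CT1.0 on day 8. In CT0.4 on day 8 WNT8B and WNT7B are filled to the left (-1.81 and -1.88). The filled point of WNT7A in CT1.0 on day 8 follows from the filter.

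Whether the KO difference itself depended on the label was tested as the difference between KO effects, each KO over WT. On day 8 the effect in CT1.0 exceeded that in CT0.4 for 5 members and fell short of it for 0 (4.6% of all genes called), led by WNT7B with 3.98 (SE 0.426, adjusted p = 0.000168 by limma) and WNT8B with 3.80 (SE 0.346, adjusted p = 2.48e-05) on the log2 scale. WNT1 followed with 3.39 (SE 0.523, adjusted p = 0.00283) and WNT10B with 2.73 (SE 0.476, adjusted p = 0.00545), and WNT3A had 1.41 (SE 0.364, adjusted p = 0.0371). For WNT8B and WNT7B the 2 effects had opposite signs, and the calls of these 2 genes were made in all 4 fits with a line left out. The calls of WNT1, WNT10B and WNT3A ended without WT line 1, with 3.45, 2.67 and 1.23, and without WT line 2, with 3.33, 2.79 and 1.59. Over all alternatives WNT1 kept its call in 8 of 11, WNT10B in 7 of 11 and WNT3A in 4 of 11. Against IWP2 on day 8, which sets the same CT1.0 libraries against others, the effect in CT1.0 was larger for WNT1, WNT10B, WNT7B, WNT8B and WNT3A (3.22% of all genes called), and that in CT0.4 was lower for WNT8B alone (0.147%). This WNT8B call (log2 -1.81, adjusted p = 0.0489 by limma) was kept in 4 of 11 alternatives and ended with the line number as a block (adjusted p = 0.0903). On day 4 the effect in CT1.0 exceeded that in IWP2 for WNT10B and WNT1 (5.09% of all genes called), while limma called 0 members for CT0.4 against IWP2 (1.34% of all genes) and 0 for CT1.0 against CT0.4 (0.297%), each with 2 at an unadjusted p under 0.05.

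Of 12 genes for WNT secretion and release other than WLS, 5 were higher and 0 lower in KO CT0.4 against IWP2 on day 8 (16.5% of all genes called), with AP2M1, an adaptor of endocytosis, at log2 0.84. In WT the same comparison had 2 higher and 0 lower (12.2% of all genes called). In KO CT1.0 against CT0.4 on day 8, 7 of the 12 were lower and 0 higher (23.1% of all genes called), with a median of -0.59 against -0.14 over all genes, and their sums were 790.45 and 784.08 TPM in CT1.0 and 1230.0 and 1314 TPM in CT0.4. Over all genes, 1267 were higher and 5177 lower there as deposited, and 2178 higher and 2658 lower under median-ratio scaling. In WT 3 of the 12 were lower and 1 higher (14.3% of all genes called), with a median of -0.18 against -0.05 over all genes. PORCN stood at 14.1 and 13.8 TPM in KO CT0.4 and 15.6 and 20.7 TPM in KO IWP2 on day 8 and was not called (log2 -0.35, adjusted p = 0.324 by limma). Between KO and WT in CT1.0 on day 8, 0 of the 12 were higher and 3 lower, where 14.3% of all genes were called: ATP9A (log2 -0.88), TMED5 (log2 -0.57) and AP2M1 (log2 -0.24), genes of membrane traffic.

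Of 15 receptor genes, 2 were higher and 6 lower in KO CT0.4 against IWP2 on day 8 (16.5% of all genes called). FZD10 was higher at 45.5 and 47.7 TPM in KO CT0.4 against 0.349 and 0.337 TPM in KO IWP2 (log2 5.15), and FZD5 (log2 -7.06) and FZD8 (log2 -4.41), receptors of the anterior neural plate and eye field, were lower. In KO CT1.0 against WT CT1.0 on day 8, 3 receptor genes were higher and 4 lower (14.3% of all genes called). FZD10 was higher (log2 1.48, SE 0.190) at 27.9 and 35.2 TPM in KO against 12.7 and 8.74 TPM in WT, and FZD5 (log2 -2.06), FZD9 (log2 -2.03) and FZD7 (log2 -1.58) were lower.

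Of 13 genes known to respond to WNT, 8 were higher and 0 lower in KO CT1.0 against WT CT1.0 on day 8. Of all genes, 14.3% were called there, 4.34% as higher, and the list median was 0.94 against -0.02 over all genes. On day 4, 7 were higher and 0 lower (14.9% of all genes called, 12.4% as higher), with a list median of 1.04 against 0.19. The share as higher on day 4 depends on the scaling, and no scaled values are given for this list. SP5, a transcription factor and direct target, stood at 21.8 and 30.3 TPM in KO against 1.78 and 0.782 TPM in WT on day 8 (log2 3.58, adjusted p = 0.000516 by limma), and at 75.0 and 32.5 TPM in KO against 1.39 and 0.610 TPM in WT on day 4 (log2 4.68). APCDD1 and NKD2, inhibitors of the pathway, were higher by 1.72 each on day 8. AXIN2, the feedback scaffold, stood at 68.3 and 60.01 TPM in KO and 48.4 and 38.5 TPM in WT on day 8 without a call, and was called on day 4 (log2 1.08). In CT0.4 on day 8, limma called 0 of the 13 between KO and WT (0.416% of all genes called), with 2 at an unadjusted p under 0.05 and a list median of 0.19.

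Markers of the dorsal midline differed along with the ligands in some comparisons and not in others. Summed over 10 roof plate and dorsal genes, CT1.0 on day 8 held 355 and 249.2 TPM in KO against 90.9 and 68.3 TPM in WT, and CT0.4 held 1754 and 1778 TPM in KO against 1514 and 968 TPM in WT. In KO CT1.0 against WT CT1.0 on day 8, 8 of the 10 were higher and 1 lower. Of all genes, 14.3% were called there, 4.34% as higher and 9.96% as lower. Among the higher ones were ZIC1 (log2 4.26), a dorsal neural factor, and GDF7 (log2 4.00) and LMX1A (log2 3.15), which mark the roof plate. In KO CT0.4 against KO IWP2 on day 8, 9 of the 10 were higher (16.5% of all genes called), and the IWP2 sums were 80.99 and 84.04 TPM. In WT CT1.0 against WT IWP2 on day 8, 4 of the 10 were higher and 2 lower (10.8% of all genes called). On day 4 in CT1.0 3 of the 10 were higher in KO (14.9% of all genes called, 12.4% as higher), and the sums were 63.7 and 40.8 TPM in KO against 13.7 and 15.1 TPM in WT. In CT0.4 on day 4, where WNT1 and WNT10B were called, 0 of the 10 were called (4.24% of all genes). The counts that follow are for KO CT1.0 against WT CT1.0 on day 8, where 4.34% of all genes were higher and 9.96% lower. Neural crest genes had 2 of 6 higher, TFAP2B (log2 1.99) and SOX10 (log2 1.48), with sums of 107 and 106 TPM in KO and 123 and 129 TPM in WT. Surface ectoderm genes had 3 of 5 tested higher, with sums of 100.34 and 78.1 TPM in KO against 45.8 and 54.7 TPM in WT. Floor plate and ventral genes had 3 of 5 tested lower, with sums of 1.85 and 1.98 TPM in KO against 12.8 and 32.9 TPM in WT. Neural progenitor genes had 5 of 7 lower and 1 higher, with sums of 1539 and 1832 TPM in KO against 3217 and 2935 TPM in WT. Neuron genes had 4 of 7 lower, with sums of 152 and 348 TPM in KO against 795 and 648 TPM in WT. Of 6 mesendoderm genes 2 were tested and limma called 0, with 0 at an unadjusted p under 0.05, and the 6 summed to 2.16 and 2.54 TPM in KO and 2.03 and 2.90 TPM in WT, with SOX17 at 0 in both libraries of each. The part of these cell type markers in the WNT differences was not tested.

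By the highest Pearson correlation of the 14 group means of log2(TPM + 1), the genes most like WNT1 were WNT10B (0.983), LMX1B (0.981), a midbrain factor, and TMEM132C (0.972). Most like WNT3A were SAMD5 (0.987), PAX7 (0.984) and GDF7 (0.980), the second a dorsal neural factor. DDN (0.985) was the closest to WNT10B, APCDD1 (0.938) to WNT4, YAP1 (0.855) to WNT8B, BVES (0.941) to WNT7B, TEX14 (0.927) to WNT7A, ANKRD23 (0.853) to WNT5A and ZFAND2B (0.966) to WNT3. FZD10 (0.947), CITED2 (0.942) and ZNF503 (0.937) were closest to WLS. Among the members themselves WNT1, WNT10B, WNT3A, WNT4 and WLS were alike over the groups, at 0.729 to 0.983 for each pair. WNT8B reached 0.815 with WNT3A and 0.647 with WNT1, and WNT3 reached 0.761 with WNT3A and 0.729 with WNT1. By contrast WNT7B reached 0.512 at most, with WNT3, and WNT7A 0.283 at most. These values describe 14 group means that share lines and cultures.

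WNT1 and WNT10B are neighbours in the genome. On GRCh38 (GENCODE 29), WNT1 lies at chr12:48978453-48981676 on the plus strand and WNT10B at chr12:48965340-48971763 on the minus strand, 6690 bases apart. DDN, a gene of neuronal dendrites, lies 13473 bases beyond WNT1 and stood at 2.96 and 1.11 TPM in KO CT1.0 on day 8 against 0.223 and 0.0768 TPM in WT CT1.0 (log2 1.33, adjusted p = 0.00245 by limma). Looking at neighbours was chosen after their values were seen. Within 100000 bases of a member lie 26 protein-coding genes that have deposited values and are not members themselves. Of these 24 were tested, and in that comparison 2 were higher and 2 lower, against 14.3% of all genes called. WLS lies at chr1:68098473-68233120 on the minus strand and shares 111 exon bases with GNG12-AS1 on the plus strand. GNG12-AS1 stood at 104.65 and 100.55 TPM in KO CT0.4 and 103 and 89.1 TPM in WT CT0.4 on day 8, and since the sources used here do not give the strand of the libraries, reads of the shared bases cannot be told apart. WNT4 shares 55 exon bases with AL445253.1 on the other strand in the same way.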

How the data were processed

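Poly(A) RNA extracted with TRIzol was sequenced on HiSeq2000 or X-ten instruments, per the labels, which do not say which sample went on which. The deposited values are TPM per gene, a measure corrected for transcript length, and the 28 columns have equal totals. CASAVA 1.7, Salmon 0.8.2 and the build hg38 are listed, with no role or order, in the submitters' processing notes, and the annotation release is unnamed in the sources used here. Each column was matched to its sample by name, and 0 were left unmatched. TPM keeps no depth, so no counting interval can be given.

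From these values log2(TPM + 1) was computed, genes with a TPM of at least 1 in at least 2 libraries were kept, and 1 model with a mean for each of 14 groups was fitted with limma 3.58.1 in R 4.3.3 (variance trend, 14 residual degrees of freedom). Benjamini-Hochberg adjustment ran within each of 37 comparisons over 27912 genes. The fitting was tested on simulated data. Intervals are 95% for a single comparison. The alternatives tried were median-ratio scaling, a pseudocount of 0.1, all genes unfiltered, the compared libraries alone, a replicate block, robust variances without a trend each line left out, and, where they are not compared, the 4 WT day 4 libraries of CT1.0 and CT0.4 left out. The sample numbers were read as lines, which pair samples of 1 genotype across cultures and times but not KO with WT. Deviations of same-numbered samples correlated at -0.0572 to 0.204 in KO (8 of 21 pairs over 0.1) and -0.0937 to 0.0783 in WT (0 of 21), over 10333 genes.

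The members and gene lists were chosen with earlier results of these data known. Named genes are the members, SOX1, called genes of the lists picked by the size of their change, and some uncalled genes of the lists. Genes beside or overlapping a member are named as well. Those given as most like a member are from the 3 with the highest correlation of group means. A result for 1 gene of the lists is not reported here. Positions are from GENCODE 29 and promoters from RefSeq. The study's purpose is stated only as far as its title and labels give it. Figures were drawn with matplotlib 3.10.9.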

Additional observations from a re-analysis of the deposited data

Results flagged for a closer look

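The difference between KO and WT itself differed between culture labels for 5 ligands, which is why these values merit a second look. Each value is a difference of 2 log2 fold changes of KO over WT, tested as an interaction in the limma fit over all genes. On day 8, CT1.0 minus CT0.4 gave 3.976 for WNT7B, 3.802 for WNT8B, 3.388 for WNT1, 2.731 for WNT10B and 1.413 for WNT3A. CT1.0 minus IWP2 on day 8 gave 3.485 for WNT1, 3.276 for WNT10B, 2.008 for WNT7B, 1.993 for WNT8B and 1.708 for WNT3A. For CT0.4 minus IWP2 on day 8, WNT8B had -1.809, a call kept in 4 of 11 alternatives. On day 4, CT1.0 minus IWP2 gave 3.096 for WNT10B and 2.467 for WNT1.

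These 13 values share libraries with one another and are not separate observations. In each interaction both KO lines were on the same side of both WT lines under at least 1 of the labels compared. Since the 13 values were picked for being called in these same libraries, that separation adds no support. The groups hold 2 libraries each, so no single library was examined as standing apart within its group.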

How the results depend on the processing

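Of 370 values (10 members in 37 comparisons) 161 were called, WNT7A included, and none of the called values reversed direction under the alternatives that could be run for it. The calls kept were 149 with a pseudocount of 0.1, 155 without the filter, 157 with median-ratio scaling, 160 with robust variances and 113 of 119 without the 4 WT day 4 libraries. With only the libraries compared, 56 were kept, because 2 residual degrees of freedom remain for 2 groups. With a line left out, 68 of 93 were kept without KO line 26, 74 of 93 without KO line 48, 54 of 93 without WT line 1 and 61 of 93 without WT line 2, where the lone sample of a group was assumed to vary like the other groups.

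Counts of members called that moved by over 1.5 times are these. With a pseudocount of 0.1, KO against WT had 0 in CT0.4 on day 4 and 0 in CT0.4 on day 8, KO CT1.0 against CT0.4 on day 4 had 2, KO IWP2 day 4 against ES had 5, WT CT1.0 day 8 against day 4 had 4, and the KO effect had 1 in CT1.0 minus IWP2 on day 4 and 0 in CT0.4 minus IWP2 on day 8. KO against WT in CT0.4 on day 4 had 1 without the filter, 1 with robust variances and 0 with median-ratio scaling. Without the 4 WT day 4 libraries the KO effect in CT0.4 minus IWP2 on day 8 had 0. With only the libraries compared, KO against WT had 0, 0 and 0 in CT0.4 on day 4, CT0.4 on day 8 and CT1.0 on day 8, and 1 in CT1.0 on day 4 (WNT7A). The label comparisons on day 4 had 0 for the 3 in KO, and in WT 0 for CT0.4 against IWP2, 3 for CT1.0 against IWP2 and 1 for CT1.0 against CT0.4. On day 8 they had 0 for CT1.0 against IWP2 and 1 for CT1.0 against CT0.4 in KO, and 5, 2 and 4 for CT0.4 against IWP2, CT1.0 against IWP2 and CT1.0 against CT0.4 in WT. Over time, day 8 against day 4 had 0 in KO IWP2, 0 in KO CT1.0, 2 in WT IWP2 and 1 in WT CT1.0, and WT IWP2 day 4 against ES had 2. The KO effects had 0 in each of the 4 comparisons with calls.

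With a line left out, KO against WT had 0 to 2 in CT0.4 on day 4 and 0 to 2 in CT0.4 on day 8. The KO effect had 0 to 2 in CT1.0 minus IWP2 on day 4, 0 to 1 in CT0.4 minus IWP2 on day 8, 0 to 5 in CT1.0 minus IWP2 on day 8 (0 without WT line 2, 1 without WT line 1, 2 without KO line 26) and 2 to 6 in CT1.0 minus CT0.4 on day 8. CT0.4 against IWP2 on day 4 had 3 to 5 in KO and 2 to 6 in WT, CT1.0 against IWP2 in WT had 2 to 3 on day 4 and 3 to 5 on day 8, and CT1.0 against CT0.4 on day 4 had 0 in KO and 0 in WT. Over time the counts were 2 to 3 for KO IWP2 day 8 against day 4, 2 to 3 for WT IWP2 day 4 against ES, 2 for WT CT0.4 day 4 against ES and 1 to 2 for WT CT1.0 day 8 against day 4.

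With the line number as a replicate block 158 calls were kept, and the KO effect in CT0.4 minus IWP2 on day 8 had 0 members. The block also ended the call of WNT7A in KO CT1.0 against KO IWP2 on day 8 (adjusted p = 0.0539 by limma). The other calls that it changed are given above. Depth is unknown, so values near 0 TPM, such as those of WNT7A, have no stated precision.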

Other observations

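Among the WNT ligands outside the 10 members, WNT2B, a dorsal midline ligand in the mouse brain, reached 240 and 258 TPM in KO CT0.4 and 225 and 161 TPM in WT CT0.4 on day 8, next to WNT1 the most abundant ligand there. In CT1.0 on day 8 it was higher in KO, at a mean of 7.91 TPM in KO against 3.60 TPM in WT (log2 0.95, adjusted p = 0.0162 by limma). WNT5B, the ligand that led in IWP2, stood at 14.7 and 15.3 TPM in KO CT0.4 and 27.5 and 40.6 TPM in WT CT0.4 on day 8, with KO below WT and no overlap, and was not called between KO and WT there. In CT1.0 on day 4 WNT5B was higher in KO (log2 1.06, adjusted p = 0.0176).

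NOTUM, which removes the lipid from WNT ligands, was higher in KO CT1.0 than in WT CT1.0 on day 8 (log2 0.96). In ES the most abundant WNT gene was not the same in all libraries, being WNT9A in KO line 26, WNT4 in KO line 48 and WT line 1 and WNT5A in WT line 2, at 16.3% to 27.4% of the sum.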
